A study of Mus musculus with 7 samples.

Results

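The 10 carboxylesterase genes *Ces1b*, *Ces1c*, *Ces1d*, *Ces1e*, *Ces1f*, *Ces1g*, *Ces2a*, *Ces2c*, *Ces3a* and *Ces3b* were followed mouse by mouse in liver RNA. They are 10 of the 18 carboxylesterases listed in a count table of 23347 genes, and they were picked by name with their earlier fold changes known, so their own differences between the groups are given here as a description. Where a member is said to be called or not, this places it beside the share of all genes called and is not a test of it. All 10 passed the filter on low counts, and each had at least 15 counts in every mouse.

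RNA-seq was done on whole livers of 7 male mice on a C57BL/6 background, with 1 library per mouse. All 7 mice carried *B4galt1* alleles flanked by recombination sites, and all received the CDAHFD, a high-fat diet short of choline and methionine that brings on steatohepatitis, for 15 weeks from an age of 6 to 8 weeks. The controls were 4 *B4galt1* flox/flox littermates, which the sample labels call WT, and the other 3 mice were labelled *B4galt1* hep-/- (*B4galt1*-HKO in the sample labels), the offspring of a cross with *Alb-Cre* mice. The *Alb-Cre* transgene expresses Cre from the albumin promoter and so acts in hepatocytes, while the other cells of the liver keep the gene. Livers of chow-fed mice were not analysed here. In whole tissue, fewer cells of a type and less RNA per cell cannot be told apart.

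Carboxylesterases are serine hydrolases of the endoplasmic reticulum that cleave ester and amide bonds in drugs and other foreign compounds and in lipids such as triacylglycerols and cholesteryl esters. The liver is a main site of expression of the family, and hepatocytes are the main cells that make these enzymes there. The mouse genome holds many more *Ces1* and *Ces2* genes than the human genome, lined up in a cluster that arose by tandem duplication. Along mouse chromosome 8 the *Ces1* genes come first, followed by *Ces5a*, the *Ces2* genes, *Ces3a*, *Ces3b* and *Ces4a*.

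*B4galt1*, the targeted gene, encodes a Golgi galactosyltransferase and was examined first because it checks the labels. It stood at 48.7, 53.0, 49.2 and 51.6 CPM (counts scaled to a common library size after TMM normalization) in *B4galt1* flox/flox replicates 1 to 4 and at 28.4, 23.9 and 53.7 CPM in replicates 1 to 3 labelled *B4galt1* hep-/-. On this scale the third of these libraries lay above all 4 controls, so the groups overlapped. In FPKM, which divides by gene length and by the library total, it lay just below them, with 12.2 to 14.0 in the controls and 6.47, 6.52 and 11.9 in the others, so whether the groups overlapped depended on the scaling. The log2 fold change was -0.52 ± 0.26 (SE; edgeR quasi-likelihood test, adjusted p = 0.181), and comparing the group means by exact permutation, two-sided, gave p = 0.143, where 0.0286 is the smallest p that 4 against 3 mice allow. A count summed over the whole gene does not show whether single exons were removed. Every direction below therefore rests on the labels, and the carboxylesterase values without replicate 3 labelled *B4galt1* hep-/- are given with the differences between mice.

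Total counts ran from 37838654 to 39668509 in *B4galt1* flox/flox libraries and from 30608271 to 34586588 in the libraries labelled *B4galt1* hep-/-. Mitochondrially encoded transcripts took 3.88% to 7.996% of the counts in the first group and 14.4% to 22.6% in the second. A gene was called when its adjusted p was under 0.05 and its absolute log2 fold change was over 0.58, and 15.8% of the 15179 tested genes were called, 7.83% lower and 8% higher. The groups did not overlap in CPM in 28.6% of tested genes, with 15% lower and 13.6% higher in the livers labelled *B4galt1* hep-/-. Of the called genes, 50.5% were higher. With limma on log2(FPKM + 1), 24.5% of called genes were higher among the 10914 genes with an FPKM of at least 1 in 3 mice (median log2 fold change -0.14) and 17.6% among all genes above 0 (median -0.05), against a median of 0.02 in the edgeR fit. These analyses differ from edgeR in test and filter as well as in scale. Over the same 15179 genes, the groups did not overlap in FPKM in 21.2% lower and 8.14% higher. On that measure the FPKM scale placed more genes lower in the livers labelled *B4galt1* hep-/- than CPM did.

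Of the 10 members, 2 were called lower, *Ces2c* and *Ces3a*, against 7.83% of all genes. None was called higher by edgeR, DESeq2 or limma, against 8% of all genes by edgeR, and 0 were higher at an unadjusted p under 0.05. The same 2 genes were the members whose groups did not overlap in CPM. The median log2 fold change of the members was -0.35, with 9 of 10 below 0, and that of all tested genes was 0.02, with quartiles of -0.39 and 0.49. Because the members were picked from this very contrast, nothing is read from these counts.

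**Figure D1:**
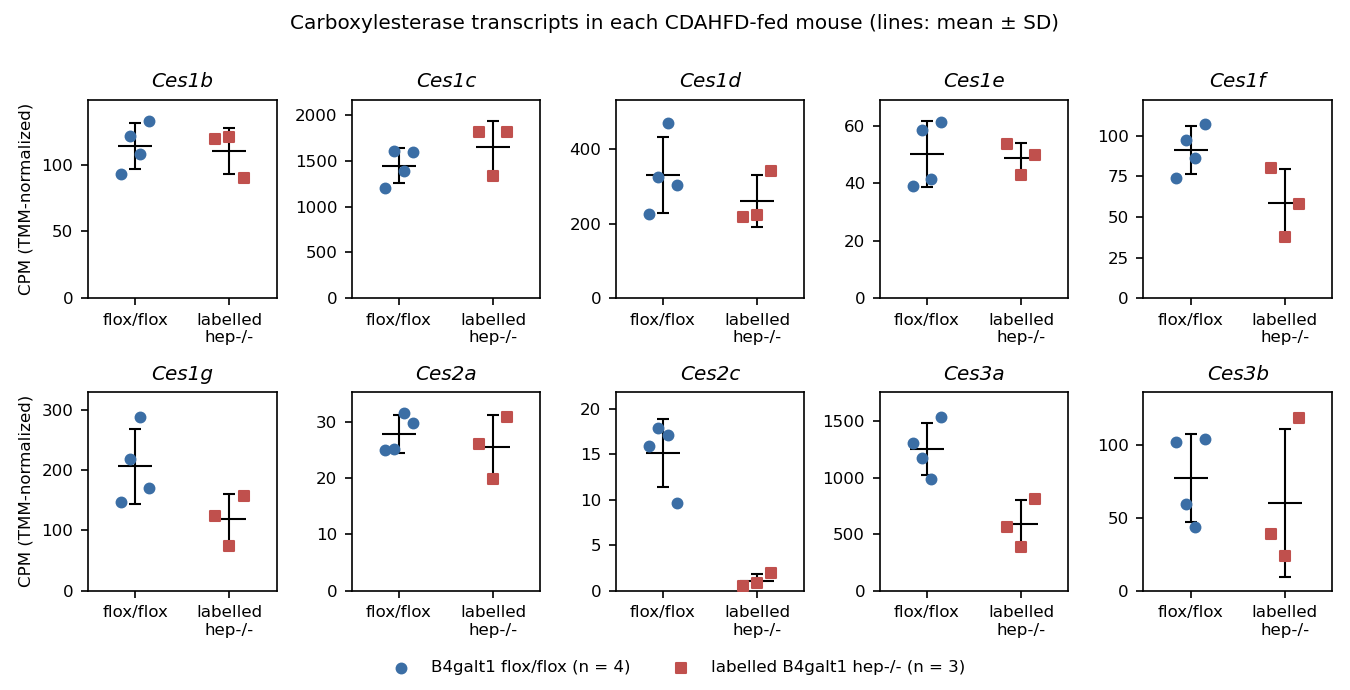
TMM-normalized CPM (y axis, linear from 0, scaled for each gene) of the 10 carboxylesterases in each of 4 *B4galt1* flox/flox mice (circles) and 3 mice labelled *B4galt1* hep-/- (squares), with the mean ± SD of each group as lines. The groups stand apart in *Ces2c* and *Ces3a*, with means of 15.2 against 1.08 and of 1255 against 588 CPM, and they overlap in the other 8.

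*Ces2c* and *Ces2a* are the *Ces2* members. The mouse *Ces2* enzymes correspond to human CES2, which prefers esters with a small acyl group, and *Ces2c* also hydrolyses acylglycerols and acylcarnitines. The sequences just upstream of 4 *Ces2* genes are shown because these genes of the cluster differed in their values. They are the 125 bases nearest to the annotated start, on its upstream side (RefSeq, GRCm38.p6, plus strand) of *Ces2a* at chr8:104733878-104734002, *Ces2c* at chr8:104846943-104847067, *Ces2e* at chr8:104926135-104926259 and *Ces2g* at chr8:104961593-104961717, with the 9-base run ACTTTGCCC in capitals, the longest run held by at least 4 of the 6 *Ces2* windows, a choice made after the sequences had been seen:
Ces2a: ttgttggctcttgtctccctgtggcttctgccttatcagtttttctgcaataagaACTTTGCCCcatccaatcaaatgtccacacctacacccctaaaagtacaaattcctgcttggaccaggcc
Ces2c: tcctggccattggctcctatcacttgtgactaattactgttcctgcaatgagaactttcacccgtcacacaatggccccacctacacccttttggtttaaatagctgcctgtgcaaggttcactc
Ces2e: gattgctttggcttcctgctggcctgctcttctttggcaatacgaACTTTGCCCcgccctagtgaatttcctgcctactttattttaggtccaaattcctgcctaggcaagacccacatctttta
Ces2g: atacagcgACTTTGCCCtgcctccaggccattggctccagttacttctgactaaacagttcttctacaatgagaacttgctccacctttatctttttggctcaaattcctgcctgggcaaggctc

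The run began at position -70 in *Ces2a*, -80 in *Ces2e* and -117 in *Ces2g*, counted back from the start. Searched on both strands of windows from 250 bases before to 50 after the start, it was found in 86 of 32851 mouse promoters (0.262%), and in 4 of the 6 *Ces2* genes with an entry, *Ces2a*, *Ces2e*, *Ces2f* and *Ces2g*. These letters are not in the windows of *Ces2c* or *Ces2h*. The letters CCAAT, found in 37.4% of all windows, were in those of both *Ces2a* and *Ces2c*. Over the 300-base windows *Ces2a* and *Ces2c* were 65.0% identical, and their coding sequences were 82.4% identical.

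*Ces2c* (NCBI gene 234671) had the lowest level of the 10 members and the largest fold change. The 4 controls held 692, 716, 733 and 342 counts and the 3 livers labelled *B4galt1* hep-/- held 15, 28 and 58, which is 15.9, 18.0, 17.2 and 9.66 CPM against 0.487, 0.844 and 1.91 CPM. Every liver labelled *B4galt1* hep-/- lay below every control, and the lowest control, replicate 4, was still above the highest of them. The means were 15.2 ± 3.77 (SD, n = 4) and 1.08 ± 0.739 CPM (SD, n = 3), a 14.1-fold lower level, and the log2 fold change was -3.81 ± 0.44 (SE). Over 16 alternative analyses the log2 fold change ranged from -4.51 to -2.56. The 3-count floor of these libraries was 0.0690 to 0.0987 CPM, so the low values of *Ces2c* were above it in every mouse.

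*Ces2a* (NCBI gene 102022), the other *Ces2* member, stood at 24.99, 25.2, 31.6 and 29.9 CPM in the controls and at 26.1, 19.9 and 31.0 CPM in the livers labelled *B4galt1* hep-/-. The groups overlapped, with 2 of the 3 latter livers inside the control range. The means were 27.9 ± 3.36 (SD, n = 4) and 25.7 ± 5.58 CPM (SD, n = 3), with a log2 fold change of -0.12 ± 0.20 (SE). Within a mouse, *Ces2a* had 1.41 to 3.11 times the FPKM of *Ces2c* in the controls and 16.3 to 53.8 times in the livers labelled *B4galt1* hep-/-.

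Of the other *Ces2* genes, which were not members, *Ces2e* was called lower by edgeR with all mice and *Ces2g* was not called. *Ces2e* was at 104, 155, 118 and 140 CPM in the controls and at 61.8, 35.02 and 95.0 CPM in the livers labelled *B4galt1* hep-/-. The groups did not overlap, and the means of 129 ± 23.0 and 63.9 ± 30.03 CPM (SD, n = 4 and 3) gave a log2 fold change of -1.01 ± 0.30 (SE; edgeR adjusted p = 0.0423), a call kept in 9 of 16 alternatives and in 2 of the 7 that leave out a mouse. *Ces2g* was at 41.9, 42.5, 40.7 and 39.8 CPM in the controls and at 32.0, 19.4 and 34.7 CPM in the others. Its groups did not overlap either, and the log2 fold change of -0.52 ± 0.21 (SE) had an edgeR adjusted p of 0.109. It was called in 2 of the 16 alternatives, both by limma, and its log2 fold change ranged from -0.69 to -0.31. *Ces2h* had 3 to 13 counts in controls and 1, 0 and 0 in the livers labelled *B4galt1* hep-/-, and *Ces2b* and *Ces2f* had no more than 2 counts in any mouse, so these 3 were not tested.

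*Ces3a* and *Ces3b* are nearly alike, with coding sequences of 1713 bases each that were 95.3% identical, and both are strongly expressed in mouse liver. *Ces3a* (NCBI gene 382053) stood at 1309, 1178, 993 and 1542 CPM in *B4galt1* flox/flox replicates 1 to 4 and at 559, 388 and 816 CPM in replicates 1 to 3 labelled *B4galt1* hep-/-. All 3 livers of the second group were below all 4 of the first. The means were 1255 ± 231 (SD, n = 4) and 588 ± 215 CPM (SD, n = 3), a 2.14-fold lower level with a log2 fold change of -1.09 ± 0.28 (SE). Over the 16 alternatives the log2 fold change ranged from -1.41 to -0.87. It was past the limits of a call in 11 of them, and short of those limits without *B4galt1* flox/flox replicate 2 or 4, without replicate 1 or 2 labelled *B4galt1* hep-/-, or with the replicate number as a block.

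*Ces3b* (NCBI gene 13909) was at 102, 59.4, 43.8 and 104 CPM in the controls and at 38.5, 23.9 and 118 CPM in the livers labelled *B4galt1* hep-/-. Replicates 1 and 2 of the latter were below every control and replicate 3 was above every control, so the groups overlapped and the mean of 60.3 ± 50.9 CPM (SD, n = 3) stood for none of its mice. The log2 fold change was -0.36 ± 0.48 (SE) with all mice, and -1.32, past the call limits, without replicate 3. That mouse was also the one with the highest *B4galt1* value in CPM, though not in FPKM.

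Reads from the nearly identical stretches of *Ces3a* and *Ces3b* could be split between the genes in ways that the authors' counting decides. The read length is not given in the sources used here, so windows of 50, 100 and 150 bases were compared. Of the 100-base windows of the longest transcript (GENCODE M21), 9.09% of those of *Ces3a* occurred exactly in *Ces3b* and 7.68% of those of *Ces3b* in *Ces3a*. Another split between the genes would not change their summed CPM, though reads left out of the counts would. The sum of both was 1411, 1237, 1036 and 1646 in the controls and 598, 412 and 934 in the livers labelled *B4galt1* hep-/-. These sums did not overlap either, and their means were 1333 ± 259 (SD, n = 4) and 648 ± 265 CPM (SD, n = 3). In *Ces2c* 15.98% of such windows were shared, with *Ces2d-ps*, *Gm6831* and *Gm8798*, in *Ces2a* 10.7% with *Gm7208*, in *Ces1c* 1.39% with *Ces1b* and in *Ces1b* 1.29% with *Ces1c*. The other 4 members shared no window of that length with another gene. At 50 bases all 10 members shared some, up to 42.2% in *Ces2c*, whose partners then included *Ces2a* and *Ces2e*, 30.9% in *Ces3a* and 17.0% in *Ces1c*, and at 150 bases 4 members did, up to 4.03%.

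The 6 *Ces1* members include the enzymes best known for handling hepatic triacylglycerol. *Ces1d*, the triacylglycerol hydrolase that mobilises stored fat for very low density lipoprotein, and *Ces1g*, whose loss in mice leads to fatty liver, are described first. *Ces1d* (NCBI gene 104158) was at 225, 325, 471 and 304 CPM in the controls and at 219, 223 and 342 CPM in the livers labelled *B4galt1* hep-/-. The groups overlapped, and the log2 fold change was -0.34 ± 0.27 (SE). Control replicate 3 was the highest of the 7, and without that mouse the log2 fold change was -0.12.

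*Ces1g* (NCBI gene 12623) was at 148, 219, 289 and 170 CPM in the controls and at 124, 74.0 and 157 CPM in the livers labelled *B4galt1* hep-/-. Only replicate 3 of the latter, at 157 CPM, reached above the lowest control. The means were 206 ± 62.6 (SD, n = 4) and 118 ± 41.6 CPM (SD, n = 3), with a log2 fold change of -0.80 ± 0.30 (SE) that was not called. Whether it was called depended on the analysis, 4 of the 16 alternatives doing so, and its log2 fold change ranged from -1.07 to -0.56.

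*Ces1f* (NCBI gene 234564), another lipid-hydrolysing esterase of hepatocytes, was at 73.7, 97.4, 86.1 and 108 CPM in the controls and at 80.0, 37.6 and 57.99 CPM in the livers labelled *B4galt1* hep-/-. Replicate 1 of the latter lay inside the control range and the other 2 below it. The log2 fold change was -0.64 ± 0.25 (SE) and not called, and leaving out a mouse moved it from -0.95 (called, without replicate 1) to -0.40 (not called, without replicate 2). Limma also called it, at -0.79 on log2(FPKM + 1) and -0.82 on log2(FPKM + 0.1), for genes with an FPKM of at least 1 in 3 mice, but not among all genes above 0. FPKM divides by a total that includes the mitochondrial reads and uses no TMM factor. In FPKM neither *Ces1f* (44.0 to 52.5 against 21.3 to 37.7) nor *Ces1g* (69.4 to 136 against 35.04 to 60.2) overlapped between the groups. On that scale the groups did not overlap in 29.4% of tested genes, 21.2% lower and 8.14% higher, and in 4 of the 10 members, all lower.

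*Ces1c*, the esterase secreted into mouse plasma, and *Ces1e*, egasyn, which holds β-glucuronidase in the endoplasmic reticulum, stayed close to the controls, as did *Ces1b*. *Ces1c* (NCBI gene 13884) was at 1198, 1602, 1387 and 1593 CPM in the controls and at 1815, 1336 and 1814 CPM in the livers labelled *B4galt1* hep-/-. It was the member with a log2 fold change above 0, 0.20 ± 0.22 (SE), and the groups overlapped. *Ces1e* (NCBI gene 13897) ran from 39.0 to 61.4 CPM in the controls and from 42.8 to 53.6 CPM in the others, all 3 inside the control range, with a log2 fold change of -0.04 ± 0.21 (SE). *Ces1b* (NCBI gene 382044) ran from 93.4 to 133 CPM and from 90.3 to 121 CPM, again overlapping, with a log2 fold change of -0.05 ± 0.20 (SE). For these 3 genes the differences were no larger than the spread between mice, which does not show that they were equal.

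*Ces1b* and *Ces1c* are the closest pair among the *Ces1* members, with coding sequences 88.7% identical against 72.0% for the least alike pair. Their promoter windows were 78.0% identical over 300 bases. The 125 bases before their starts are shown in lower case, without a marked motif, as the pair whose upstream sequences were the most alike of those named here (RefSeq, GRCm38.p6, minus strand, *Ces1b* from the downstream of 2 listed starts at chr8:93079941-93080065 and *Ces1c* at chr8:93131284-93131408):
Ces1b: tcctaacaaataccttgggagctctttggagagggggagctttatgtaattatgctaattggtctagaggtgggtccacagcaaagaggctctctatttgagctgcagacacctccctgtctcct
Ces1c: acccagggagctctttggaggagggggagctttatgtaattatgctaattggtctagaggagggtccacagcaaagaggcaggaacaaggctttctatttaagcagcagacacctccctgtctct

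Promoter entries were found for 7 of the 10 members; *Ces1d*, *Ces1f* and *Ces3a* had none. The letters TATAAA, found in 13.6% of all windows on either strand, were in those of *Ces1g* and *Ces3b* among the members. Of the non-member *Ces1* genes, *Ces1a* was at 0.211 to 0.301 CPM and 0.162 to 0.271 CPM, with a log2 fold change of -0.16 (edgeR adjusted p = 0.873), and *Ces1h* had at most 2 counts in a mouse. *Ces4a*, at 0.215 ± 0.112 and 0.170 ± 0.0242 CPM (SD, n = 4 and 3), was also too low to be tested, and *Ces2d-ps* and *Ces5a* were not analysed here.

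**Figure D2:**
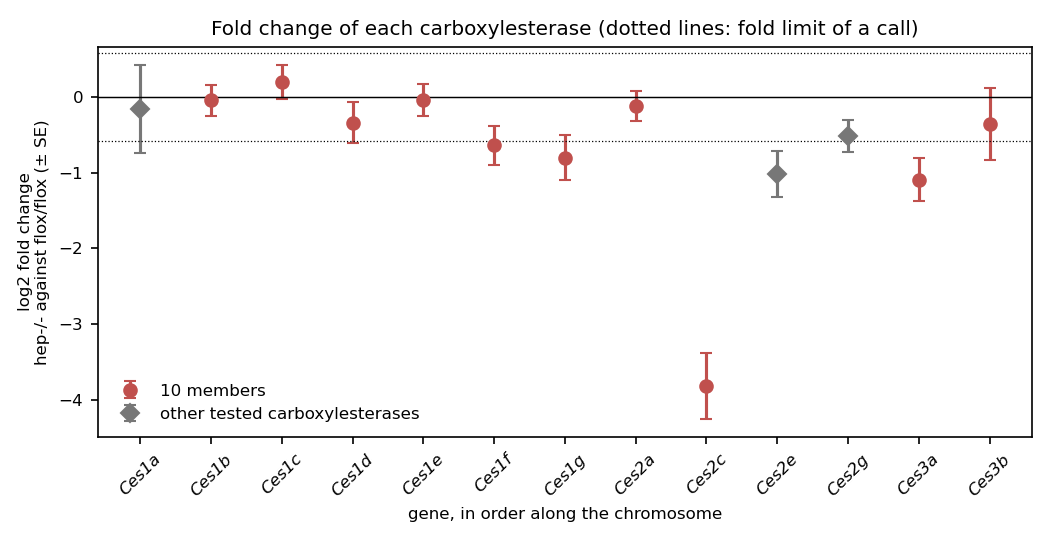
Log2 fold change (y axis, ± SE) of the 13 tested carboxylesterases in livers labelled *B4galt1* hep-/- (n = 3) against *B4galt1* flox/flox livers (n = 4), in gene order along the chromosome (x axis), members as circles and the other 3 as diamonds, with dotted lines at the fold limit of a call. *Ces2c* stands at -3.81, between *Ces2a* at -0.12 and *Ces2e* at -1.01, and *Ces1b* to *Ces1e* lie between -0.34 and 0.20.

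Levels were compared between genes in FPKM, which accounts for gene length. In the controls *Ces1c* was highest at 811 ± 53.4 FPKM, followed by *Ces3a* at 621 ± 97.3, *Ces1d* at 175 ± 57.5, *Ces1g* at 93.8 ± 30.6, *Ces1b* at 58.5 ± 3.93, *Ces1f* at 49.0 ± 3.76, *Ces3b* at 25.4 ± 10.3, *Ces1e* at 24.9 ± 3.79, *Ces2a* at 14.8 ± 1.88 and *Ces2c* at 8.10 ± 2.34 (SD, n = 4). The ranges of *Ces1d* and *Ces1g*, and of *Ces3b* and *Ces1e*, overlapped, and all other neighbours in this order were apart in every mouse.

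In the livers labelled *B4galt1* hep-/-, *Ces1c* was again highest at 848 ± 55.1 FPKM, ahead of *Ces3a* at 262 ± 73.2, *Ces1d* at 126 ± 26.2, *Ces1b* at 52.8 ± 12.9, *Ces1g* at 48.0 ± 12.6, *Ces1f* at 28.5 ± 8.41, *Ces1e* at 22.4 ± 1.17, *Ces3b* at 17.4 ± 13.6, *Ces2a* at 12.3 ± 1.48 and *Ces2c* at 0.513 ± 0.317 (SD, n = 3). From *Ces1b* down to *Ces2a*, each gene's range overlapped that of the next. *Ces1c*, *Ces3a* and *Ces1d* kept the top 3 places in both groups, and *Ces2a* and *Ces2c* the last 2.

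**Figure D3:**
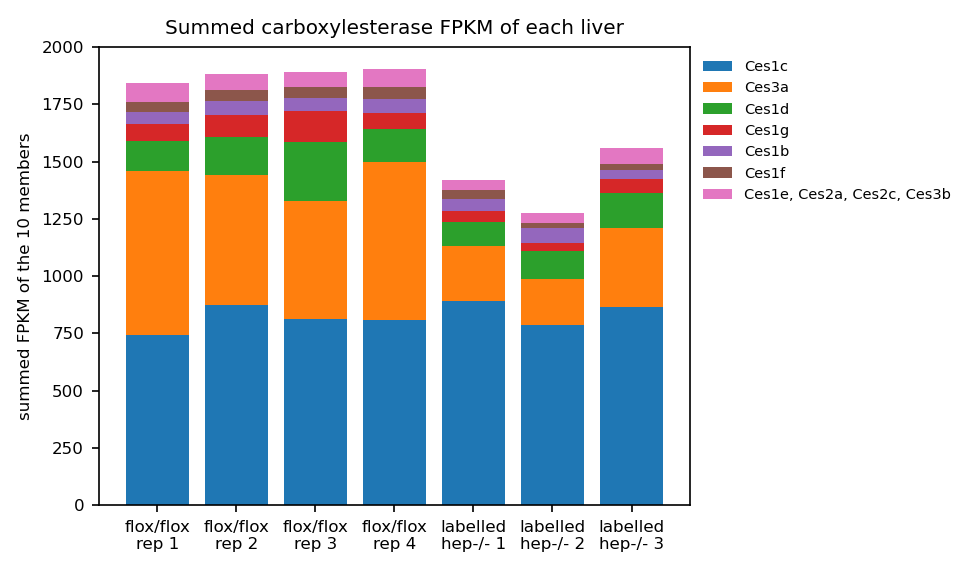
FPKM of the 10 carboxylesterases stacked for each mouse (y axis, linear from 0; x axis, 4 *B4galt1* flox/flox and 3 labelled *B4galt1* hep-/- mice), with the 4 least abundant of them combined. The total lay between 1843 and 1905 in the controls and between 1274 and 1558 in the other 3. Its scale includes mitochondrial reads and uses no TMM factors. The *Ces3a* segment differs most, with means of 621 and 262 FPKM.

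Together the members took 0.369% to 0.379% of all counts in the controls and 0.245% to 0.306% in the livers labelled *B4galt1* hep-/-. This share and the FPKM sums rest on totals that include the mitochondrial reads and use no TMM factors. The part of either in the difference was not tested. The summed CPM after TMM scaling overlapped, at 3229 to 4054 and 2266 to 3478, so the groups were not apart in the family total on that scale. *Ces1c* made up 40.4% to 46.4% of their summed FPKM in the first group and 55.6% to 62.7% in the second, and *Ces3a* made up 27.1% to 38.8% and 15.8% to 22.02%. Within a mouse the ratio of *Ces3a* to *Ces1c* was 0.630 to 0.961 in the controls and 0.255 to 0.396 in the others, without overlap. Ratios between members do not depend on the library total. The ratio of *Ces3a* to *Ces3b* overlapped, at 19.3 to 34.2 and 10.4 to 24.5, whereas that of *Ces1c* to *Ces1f* did not, at 15.4 to 17.1 and 23.6 to 37.0.

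**Figure D4:**
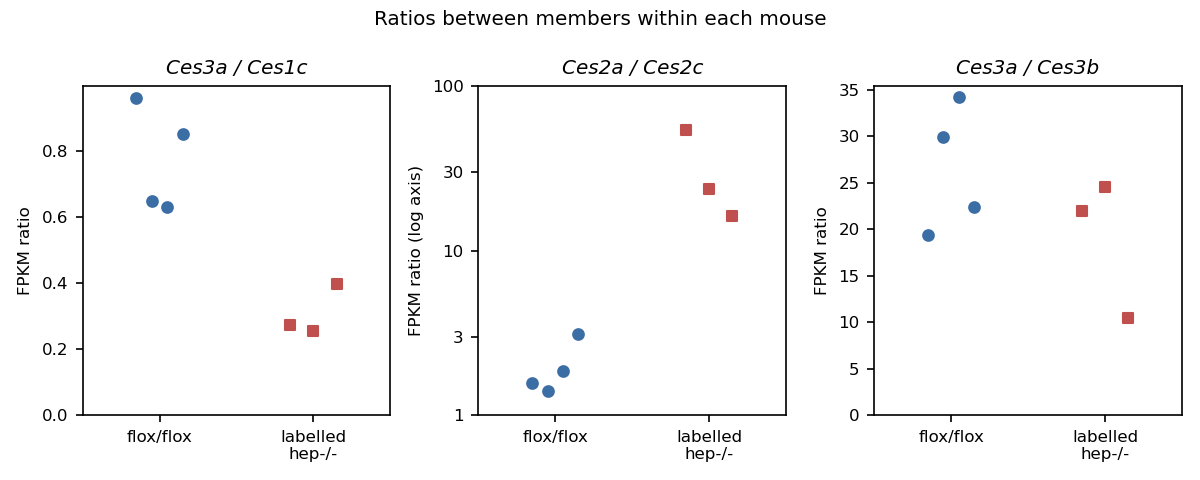
Ratio of FPKM values within each mouse for *Ces3a* to *Ces1c* and *Ces3a* to *Ces3b* (linear axes from 0) and *Ces2a* to *Ces2c* (log axis), with 4 *B4galt1* flox/flox mice (circles) and 3 mice labelled *B4galt1* hep-/- (squares). The groups stand apart in the first pair (0.630 to 0.961 against 0.255 to 0.396) and in *Ces2a* to *Ces2c* (1.41 to 3.11 against 16.3 to 53.8), and overlap in *Ces3a* to *Ces3b*.

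The mice of a group differed from each other in several members at once. Control replicate 3 had the highest *Ces1d* and *Ces1g* and the lowest *Ces3a* and *Ces3b* of the 4 controls. Replicate 3 labelled *B4galt1* hep-/- had the highest *Ces1d*, *Ces1g*, *Ces2c*, *Ces3a* and *Ces3b* of its group. Without that mouse the log2 fold changes were -4.51 for *Ces2c*, -1.41 for *Ces3a*, -1.07 for *Ces1g*, -0.64 for *Ces1f*, -0.59 for *Ces1d* and -0.29 for *Ces2a*, and those of *Ces1b*, *Ces1c* and *Ces1e* were 0.07, 0.12 and -0.06. *Ces2e* and *Ces2g* then stood at -1.42 and -0.69. The members called lower were 3 instead of 2, the third being *Ces3b*, where 7.51% of all genes were called lower in that analysis.

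Other hydrolases with overlapping substrates were examined as a list of 20 genes, of which 19 were tested. Of these, 5 were called lower and 1 higher, where 7.83% and 8% of all genes were, and the median of the list was -0.44 on the log2 scale. Without *B4galt1* flox/flox replicate 2, 2 of the 19 were called, where the share of all genes called went from 15.8% to 5.90%. *Lipa*, the lysosomal acid lipase, fell from 272 ± 80.01 to 103 ± 21.6 CPM (log2 fold change -1.40 ± 0.26, edgeR adjusted p = 0.00816). *Pon2*, a lactonase, and *Ephx1*, the microsomal epoxide hydrolase, fell with log2 fold changes of -1.17 ± 0.26 (edgeR adjusted p = 0.0145) and -0.87 ± 0.20 (adjusted p = 0.0183). *Pnpla6*, a lysophospholipase, rose from 14.1 ± 4.69 to 29.6 ± 6.52 CPM (log2 fold change 1.07 ± 0.26, edgeR adjusted p = 0.0191).

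Among 20 regulators of carboxylesterase and lipid genes, all tested, 2 were called higher and 2 lower, which is near the 8% and 7.83% of all genes and is no result about the list. Without *B4galt1* flox/flox replicate 2, 1 of the 20 was called, where 5.90% of all genes were. *Nr1i2*, which encodes the xenobiotic receptor PXR, rose from 94.4 ± 2.85 to 165 ± 22.1 CPM (log2 fold change 0.81 ± 0.18, edgeR adjusted p = 0.0132), and *Cebpb* rose with a log2 fold change of 0.94 ± 0.22 (adjusted p = 0.0184). *Rxra*, whose product pairs with PXR and other nuclear receptors, fell from 326 ± 40.02 to 147 ± 17.6 CPM (log2 fold change -1.15 ± 0.20, edgeR adjusted p = 0.00605), and *Pparg* fell with a log2 fold change of -0.92 ± 0.25 (adjusted p = 0.0311).

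Of 15 genes whose products work with the carboxylesterases on lipid droplets or bind them, 4 were called lower, against 7.83% of all genes. *Gusb*, the β-glucuronidase that *Ces1e* retains, fell from 62.8 ± 18.8 to 32.6 ± 6.30 CPM (log2 fold change -0.95 ± 0.25, edgeR adjusted p = 0.0259), while *Ces1e* itself had a log2 fold change of -0.04. *Plin2*, a lipid droplet coat protein, *Dgat2*, which makes triacylglycerol, and *Fitm2*, which helps droplets form, fell with log2 fold changes of -1.06 ± 0.26, -0.81 ± 0.21 and -1.42 ± 0.36 (edgeR adjusted p = 0.0210, 0.0266 and 0.0245). The median of the 15 was -0.22. Leaving out *B4galt1* flox/flox replicate 2, or replicate 1 labelled *B4galt1* hep-/-, ended all 4 calls of edgeR, where 5.90% and 11.7% of all genes were called. When *B4galt1* flox/flox replicate 3, or replicate 2 labelled *B4galt1* hep-/-, was left out, 1 gene of the list was called. In those fits 9.36% and 7.76% of all genes were called, against 15.8% with all mice.

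Markers of liver cell types moved beside these values. Pericentral hepatocyte markers had a summed level of 11111 to 12604 CPM in the controls and 2992 to 6440 CPM in the livers labelled *B4galt1* hep-/-. By edgeR 4 of 5 were called lower, *Oat*, *Slc1a2*, *Cyp2e1* and *Glul*. The fifth, *Cyp1a2*, was also lower without overlap, with a log2 fold change of -0.81 (edgeR adjusted p = 0.0766). Periportal markers summed to 1466 to 2614 and 1303 to 2084 CPM, and general hepatocyte markers, led by *Alb* and *Apoa1*, to 74702 to 112926 and 92338 to 143446 CPM, both with overlap. *Alb* makes up most of the latter sum, and the other markers did not move together, with log2 fold changes of 0.70 for *Apoa1*, without overlap, and -0.85 for *Cps1* (edgeR adjusted p = 0.109 and 0.110). Macrophage markers summed to 803 to 1929 and 352 to 435 CPM, and 3 of 5 were called lower, *Lyz2*, *Adgre1* and *Cd68*. Most of that sum was *Lyz2* (1004 ± 409 and 226 ± 37.1 CPM), and the other 2, *Clec4f* and *Ptprc*, were not called, with log2 fold changes of -0.47 and 0.37 (edgeR adjusted p = 0.251 and 0.231). Stellate cell markers (564 to 897 and 555 to 770 CPM), endothelial markers (44.8 to 168 and 64.8 to 82.7 CPM, with *Kdr* called lower) and cholangiocyte markers (14.0 to 38.6 and 18.9 to 73.0 CPM) overlapped. Of the genes that mark gut epithelium and kidney, *Umod* was at or near 0 and *Fabp2* was not absent, at 150 ± 38.7 and 108 ± 41.4 CPM. The part of these shifts in the carboxylesterase values was not tested.

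The profiles most like those of the leading member of each subfamily were found by the root mean square difference of log2 CPM, each gene centred on its own mean over the 7 mice. The search covered 8373 genes with a mean of at least 10 CPM and left out the carboxylesterases themselves. For *Ces1c* the closest were *Ywhaz*, *Mbd2* and *Pi4k2b*, at distances of 0.0440, 0.0486 and 0.0514 against a median of 0.380 over the genes searched. *Ces2a* was closest to *Rpl8*, *Bhmt2* and *Mcur1*, at 0.0532, 0.0613 and 0.0679 against a median of 0.350. *Ces3a* was closest to *C8b*, *Gpcpd1* and *Tpi1*, at 0.0777, 0.0833 and 0.0973 against a median of 0.653. These are descriptions over 7 points that share the 2 groups.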

How the data were processed

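The authors extracted total RNA with TRIzol and made libraries with a VAHTS Universal V6 kit. They deposited counts, whole numbers of reads per gene and mouse without normalization, and FPKM values that, in all 13374 genes checked (10 or more counts in each library), equal the count divided by a gene length and the library total. The submitters' processing notes name GRCm39, fastp, HISAT2, HTSeq, DESeq2 and R 3.2.0. The annotation, strand setting and handling of reads that map to several genes are not given in the sources used here, so sequences come from RefSeq (GRCm38.p6) and GENCODE M21, and no position is given on GRCm39.

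Groups and replicate numbers came from the labels. The 3 numbers shared by both groups belong to different mice and did not pair them (correlations of deviations -0.34, -0.03 and 0.08). The edgeR p-values set the group difference against the variation between these mice, estimated with information shared across genes. No 2 libraries were alike within sampling noise, and 0 columns of sample values were left unused. Genes were kept by filterByExpr (minimum count 10, minimum total 15), scaled by TMM factors and compared by the quasi-likelihood test of edgeR 4.0.16 under R 4.3.3, with group as the sole term and Benjamini-Hochberg adjustment over 15179 genes. Standard errors were computed from the F statistic. The study used DESeq2 with the same thresholds. Sequence identities were computed with Biopython 1.88, permutation tests with scipy 1.17.1. The fitting steps were tested on simulated counts.

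The members, gene lists, tests and alternatives were chosen with earlier results of these data known. Named genes were all members, the other listed carboxylesterases, *B4galt1*, up to 4 called genes per list with the largest changes, and the 3 nearest profiles of 3 members. Some cell type markers that were not called or not tested were named as well. The alternatives were DESeq2 1.42.0, RLE normalization, log2 FPKM values in limma 3.58.1 with pseudocounts of 1 and 0.1, other filters, no mitochondrial genes, no fold limit, the replicate block and each mouse left out.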

Additional observations from a re-analysis of the deposited data

How the results depend on the processing

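The members called lower were 2 by edgeR with all mice, 3 by DESeq2 and with a filter of at least 1 count, 4 by limma on log2(FPKM + 1) and on log2(FPKM + 0.1) for genes with an FPKM of at least 1 in 3 mice, 2 by limma on all genes above 0, 1 with the replicate block and 1 to 3 when a mouse was left out. Of all genes, 7.83% were called lower by edgeR, 10.2% by DESeq2, 5.93% with the 1-count filter, 15.8% and 17.0% in the 2 limma analyses with an FPKM minimum, 4.47% in the third, 4.05% with the block and 3.16% to 7.51% when a mouse was left out. No member was called higher in any of these, where 0.954% (limma on all genes above 0) to 11.2% (DESeq2) of all genes were. Among all genes 2404 were called, 1246 by limma on all genes above 0 and 885 (without *B4galt1* flox/flox replicate 2) to 2396 when a mouse was left out, against 3281 by DESeq2. Other carboxylesterases called went from 1 to 2, 2 and 0 in the 3 limma analyses, where 21.0%, 22.1% and 5.43% of all genes were called. They went to 0 to 1 when a mouse was left out. Leaving out a mouse gave 2 to 7 related hydrolases (6 with all mice), 1 to 4 regulators (4) and 0 to 5 partner genes (4). The share of all genes called was then 5.90% to 16.1%, against 15.8% with all mice. The log2 fold change of *B4galt1* was called at -0.67 by limma on log2(FPKM + 1) with that FPKM minimum and at -0.96 without replicate 3 labelled *B4galt1* hep-/-, and ranged from -0.96 to -0.30 over the mice left out.

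With the replicate number as a block, 1267 genes (8.35%) were called, with 0 other carboxylesterases, 3 hydrolases, 2 regulators and 2 partner genes. Since the numbers do not pair the mice, calls lost there are not read as weaker effects. Log2 fold changes near 0 changed sign under the block, to 0.0286 for *Ces1b* and 0.0906 for *Ces1e*. They also did so when a mouse was left out, where *Ces1b* ranged from -0.132 to 0.0658, *Ces1e* from -0.143 to 0.0712, *Ces2a* from -0.288 to 0.0326 and *Ces3b* from -1.32 to 0.0198. The causes were not tested. What size of difference 4 and 3 mice could resolve was not tested. A missing call of a variable member therefore does not show that the groups were equal.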
